A study of Mus musculus with 18 samples.

Results

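The genes described here encode 8 calcium-binding proteins of neurons, Calb1, Calb2, Pvalb, Hpca, Hpcal1, Ncald, Vsnl1 and Cabp1, measured in the mouse retina at birth (P0), at postnatal day 7 (P7) and in the adult. They were chosen by symbol: a probe set was taken where the array annotation gave it exactly 1 gene symbol and that symbol was one of the 8. This gave 15 of the 45037 probe sets on the array that are not controls, and 8 of 18193 genes. Where a gene had several probe sets, the one with the highest mean over the 18 arrays was used as its lead.

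Retinas came from Plk3-KO mice, which carry a targeted deletion in Plk3, a polo-like kinase, and from their WT littermates. There were 3 Plk3-KO and 3 WT arrays at each of the 3 ages, 18 arrays in all. The knockout line was bred to C57Bl/6 mice until a retinal degeneration allele, Rd1, that it had brought from its partly Black Swiss background was gone. The exact age of the adult mice, their sex, and whether 1 or several retinas went into an array are not given in the sources used here, so p-values measure the spread between these arrays.

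Calcium entering a neuron is bound by proteins with EF-hands, helix-loop-helix folds that hold the ion. Calbindin (Calb1), calretinin (Calb2) and parvalbumin (Pvalb) are mainly buffers that limit the size and spread of a calcium signal. Hippocalcin (Hpca), Hpcal1, neurocalcin delta (Ncald) and visinin-like 1 (Vsnl1) are neuronal calcium sensors, which expose a lipid anchor and move to membranes when they bind calcium. Cabp1 resembles calmodulin and tunes voltage-gated calcium channels and inositol trisphosphate receptors. In the mouse retina, antibodies to calbindin mark horizontal cells and some amacrine and ganglion cells, antibodies to calretinin mark amacrine and ganglion cells, and antibodies to parvalbumin mark a subset of ganglion cells.

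The promoters of Pvalb and Vsnl1, which had the steepest increases with age among the members with a promoter in the table, and of Hpcal1, which had the shallowest, are shown first to set the ends of that range side by side. RefSeq promoters of build GRCm38.p6 (the 250 bases before and 50 after a transcription start) were matched for 5 of the 8 members. For Pvalb, Vsnl1 and Hpcal1 the most upstream start was taken, at chr15:78206351-78206650 on the minus strand, chr12:11436529-11436828 on the minus strand and chr12:17690559-17690858 on the plus strand. Capitals mark the GC box GGGCGG on either strand.
Pvalb: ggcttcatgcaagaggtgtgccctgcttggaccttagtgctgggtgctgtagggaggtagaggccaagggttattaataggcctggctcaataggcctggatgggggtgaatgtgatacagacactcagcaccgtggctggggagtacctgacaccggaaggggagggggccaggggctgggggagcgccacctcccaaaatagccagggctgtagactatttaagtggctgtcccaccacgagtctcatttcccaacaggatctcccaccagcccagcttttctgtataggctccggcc
Vsnl1: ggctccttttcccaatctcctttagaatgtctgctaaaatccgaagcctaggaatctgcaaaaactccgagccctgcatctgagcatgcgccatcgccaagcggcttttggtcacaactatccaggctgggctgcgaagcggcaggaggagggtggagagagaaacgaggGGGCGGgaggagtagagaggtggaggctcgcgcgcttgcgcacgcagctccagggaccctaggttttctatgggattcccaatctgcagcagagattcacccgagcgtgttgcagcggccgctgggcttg
Hpcal1: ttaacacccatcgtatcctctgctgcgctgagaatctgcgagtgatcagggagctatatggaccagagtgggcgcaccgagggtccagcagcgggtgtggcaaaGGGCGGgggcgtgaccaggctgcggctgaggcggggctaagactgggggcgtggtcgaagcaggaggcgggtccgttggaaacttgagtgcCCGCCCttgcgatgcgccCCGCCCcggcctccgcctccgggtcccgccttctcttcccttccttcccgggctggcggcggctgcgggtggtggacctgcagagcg
The GC box was found 0 times in the Pvalb window, 1 time in the Vsnl1 window and 3 times in the Hpcal1 window, and 35.7% of the 32851 promoters of this length in the table hold it at least once. The E-box CANNTG, which 72.3% of those promoters hold, was found 1 time in the Vsnl1 window and in neither of the other windows. TATAAA (13.6% of promoters), the cAMP response element TGACGTCA (1.79%) and the CRX site TAATCC (7.06%) were found in none of the 3 windows, with both strands searched. Guanine and cytosine made up 58.3% of the Pvalb window, 58.7% of the Vsnl1 window and 68.3% of the Hpcal1 window. Of the members not shown, Hpca held 1 GC box, 2 E-boxes and 1 CRX site at its most upstream start, and Cabp1 held 2 GC boxes and 1 E-box. The other start of Vsnl1 held 0 GC boxes and 1 E-box, and that of Pvalb 0 GC boxes and 2 E-boxes. Whether motif counts go with the gain was not tested.

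Values are log2 MAS5 signals as deposited, so that a difference of 1 is a doubling. A mean of 7 in either genotype at an age is the minimum used by the methods, and limma was run on the probe sets above it, with p-values adjusted over all of them (Benjamini-Hochberg) and a call at an adjusted p under 0.05. For differences between ages, the minimum had to be passed in any of the 6 groups. The 3 arrays of a group limit the precision of every value, and an exact permutation test of 3 arrays against 3 cannot go below p = 0.1. Array medians ran from 6.8 to 7.1 at P0, from 6.4 to 6.9 at P7 and from 6.3 to 7.2 in the adult. Adult Plk3-KO array 3 stood apart, with correlations of 0.802 to 0.849 with the other adult arrays, against 0.935 to 0.948 among the P0 arrays. At P7, Plk3-KO array 2 and WT array 3 (medians 6.4), and in the adult WT array 3 (median 7.0), also differed from the rest of their groups, and calls of the lead probe sets that change without these 4 arrays are given with both values. The difference between 3′ and 5′ actin control probe sets, which grows as RNA or its amplified copy shortens, was 1.0 to 1.3 at P0, 0.8 to 1.6 at P7 and 1.6 to 2.7 in the adult.

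Plk3 has 1 probe set, 1434496_at, which reads the 3′ end of the gene outside the targeted region and therefore checks nothing about the deletion. Its adult values were 7.4, 8.0 and 7.7 in Plk3-KO retinas, against 5.9, 3.9 and 5.8 in WT retinas. At P0 they were 8.0, 8.2 and 7.5 in Plk3-KO and 6.4, 6.9 and 7.3 in WT retinas. P7 values were 8.1, 6.1 and 7.7 in Plk3-KO and 6.0, 6.3 and 6.0 in WT retinas. There, Plk3-KO array 2, which stood apart, lay within the WT range. By limma the Plk3-KO minus WT difference was called at no age (adult 2.50, SE 0.547, adjusted p = 0.978). Calb1 and Hpca lie on chromosome 4, as does Plk3, with 614 protein-coding genes between Calb1 and Plk3 and 171 between Hpca and Plk3. The other members lie on chromosomes 5 (Cabp1), 8 (Calb2), 12 (Vsnl1 and Hpcal1) and 15 (Ncald and Pvalb).

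All 8 members were higher in the adult than at P0 in both genotypes, but by very different amounts and over different intervals. Calb1 and Pvalb had the largest differences. Calb1 was higher in the adult by 5.23 in each genotype. For Pvalb the measured differences were 6.37 in Plk3-KO and 7.17 in WT retinas, but they rest on P0 signals below the minimum, and the adult mean lay 4.03 above that minimum in Plk3-KO and 4.07 above it in WT retinas. Vsnl1 followed at 3.13 in Plk3-KO and 3.40 in WT retinas. Cabp1, Hpca, Calb2, Hpcal1 and Ncald gained between 0.70 and 1.70 in Plk3-KO retinas and between 1.20 and 2.0 in WT retinas. Over all 25085 probe sets tested, 19.4% were called higher in the adult than at P0 in Plk3-KO and 20.7% in WT retinas, with median differences of -0.23 and -0.20, while the medians of the 8 lead probe sets were 1.58 and 1.92. The retina as a whole was sampled, so a larger share of cells of a type and more RNA per cell cannot be told apart. Whether the shift in the actin 3′ to 5′ difference with age contributed to these values was not tested.

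**Figure D1:**
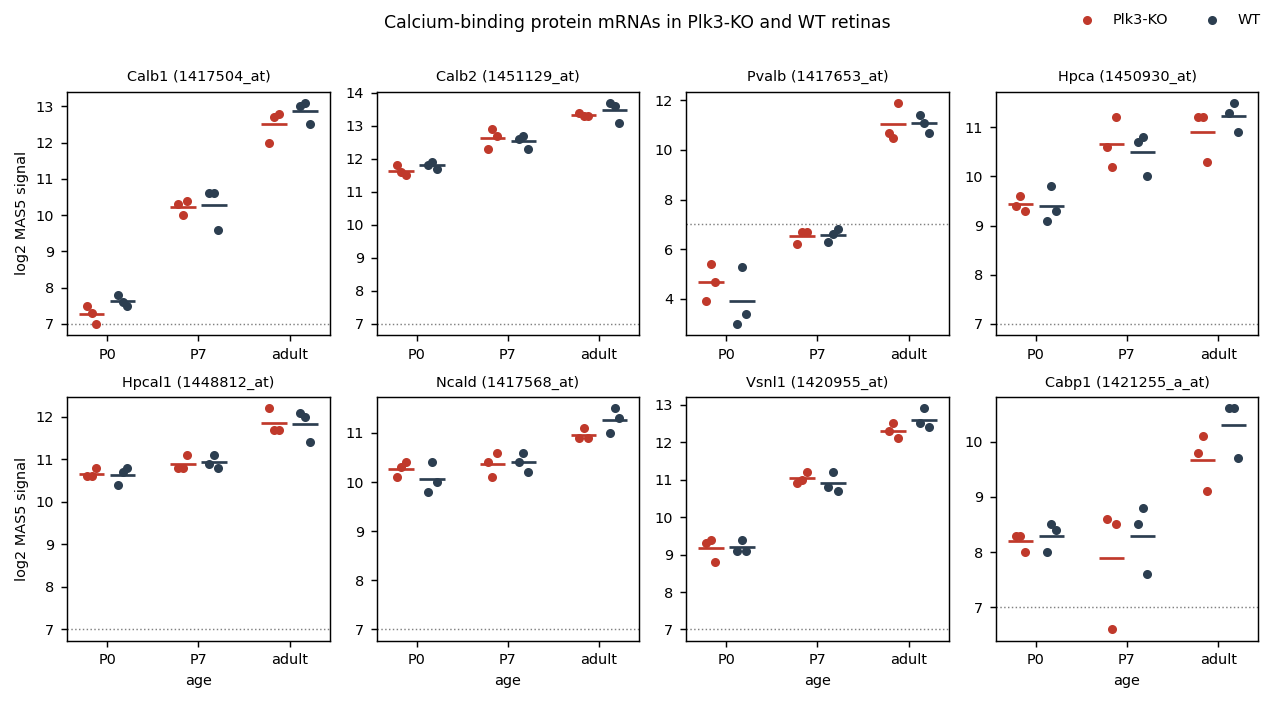
Log2 MAS5 signal (vertical axis) of the lead probe set of each member at P0, P7 and adult (horizontal axis), with 1 point per array, horizontal bars at the mean of 3 arrays, Plk3-KO in red left of WT in dark blue, and a dotted line at the minimum of 7. Pvalb lies below that line at P0 and P7 and between 10.5 and 11.9 in the adult, and the ranges of the red and dark blue points overlap or meet at each age in every panel, with Calb1 at P0 sharing only the value of 7.5.

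Among the buffers, Calb1 rose in both intervals. At P0 its lead probe set 1417504_at had values of 7.5, 7.3 and 7.0 in Plk3-KO retinas and of 7.8, 7.6 and 7.5 in WT retinas, close to the minimum. By P7 the values were 10.3, 10 and 10.4 in Plk3-KO retinas and 10.6, 10.6 and 9.6 in WT retinas. Adult values were 12.0, 12.7 and 12.8 in Plk3-KO retinas and 13.0, 13.1 and 12.5 in WT retinas. No array of one age overlapped with those of another within a genotype. P7 exceeded P0 by 2.97 in Plk3-KO retinas (SE 0.276, limma adjusted p = 1.5e-06) and by 2.63 in WT retinas (adjusted p = 6.12e-06), and the adult exceeded P7 by 2.27 in Plk3-KO and 2.60 in WT retinas. The whole gain from P0 to adult was 37.6-fold in each genotype (95% interval 25.1 to 56.4). The dimmer probe sets 1456934_at and 1448738_at of Calb1 were also called higher in the adult than at P0, but their P0 means of 2.60 to 3.60 lay far below the minimum and their adult means of 6.93 to 7.47 close to it, so the sizes of these differences are not firm. The probe set 1458836_at stayed below a mean of 7 in each of the 6 groups and was not tested by limma.

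Calb2, with the single probe set 1451129_at, was already well above the minimum at birth. Its P0 values were 11.8, 11.6 and 11.5 in Plk3-KO retinas and 11.8, 11.9 and 11.7 in WT retinas. P7 retinas had 12.3, 12.9 and 12.7 in the Plk3-KO and 12.6, 12.7 and 12.3 in the WT. In the adult the values were 13.4, 13.3 and 13.3 in Plk3-KO retinas and 13.7, 13.6 and 13.1 in WT retinas. The ages did not overlap within either genotype. Calretinin mRNA was 3.25-fold higher in the adult than at P0 in Plk3-KO retinas and 3.17-fold higher in WT retinas (adjusted p = 3.39e-06 and 4.45e-06). Of this log2 gain, 58.8% had been reached by P7 in Plk3-KO and 44.0% in WT retinas. The WT call for P7 over P0 (0.73, adjusted p = 0.0132) was lost without P7 WT array 2 (adjusted p = 0.0535) or P0 WT array 3 (0.0538), and the Plk3-KO call for adult over P7 (0.70, adjusted p = 0.0200) was lost without adult Plk3-KO array 1 (0.0607) or P7 Plk3-KO array 1 (0.103).

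Pvalb was the only member whose lead probe set lay below the minimum at P0 and at P7. At P0, 1417653_at had 3.9, 5.4 and 4.7 in Plk3-KO retinas and 3.0, 5.3 and 3.4 in WT retinas. P7 values were 6.2, 6.7 and 6.7 in Plk3-KO retinas and 6.3, 6.6 and 6.8 in WT retinas. The adult values of 10.7, 10.5 and 11.9 in Plk3-KO retinas and of 11.4, 11.1 and 10.7 in WT retinas were all far above those of both earlier ages. Set against the minimum of 7 in place of the measured low values, the adult mean was at least 16.4-fold higher in Plk3-KO retinas and at least 16.8-fold higher in WT retinas. The measured adult minus P7 difference was 4.50 in each genotype (SE 0.538, adjusted p = 4.04e-05 in Plk3-KO and 4.52e-05 in WT retinas). Differences between P7 and P0 (1.87 in Plk3-KO and 2.67 in WT retinas) were called, but rest on signals below the minimum, and the Plk3-KO call (adjusted p = 0.0217) was lost without any one of P7 Plk3-KO array 2 (0.0655), P7 Plk3-KO array 3 (0.0664), P0 Plk3-KO array 1 (0.103) and P0 Plk3-KO array 3 (0.0562).

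Among the calcium sensors, Vsnl1 had the largest gain from P0 to adult. Its P0 values (1420955_at) were 9.3, 9.4 and 8.8 in Plk3-KO retinas and 9.1, 9.4 and 9.1 in WT retinas. At P7 they were 10.9, 11.0 and 11.2 in Plk3-KO retinas and 10.8, 11.2 and 10.7 in WT retinas. Adult retinas had 12.3, 12.5 and 12.1 in the Plk3-KO and 12.5, 12.9 and 12.4 in the WT. The 3 ages stood clear of one another in both genotypes. WT retinas gained 1.70 in each interval (SE 0.2), and Plk3-KO retinas gained 1.87 to P7 and a further 1.27 to the adult, each called by limma with adjusted p between 6.71e-06 and 0.000489. The other probe set, 1450055_at, was called for P7 over P0 (1.43 in Plk3-KO and 1.30 in WT retinas) and for adult over P0 (1.67 in Plk3-KO and 1.90 in WT retinas) but not for adult over P7, where it differed by 0.23 in Plk3-KO and 0.60 in WT retinas. The difference between the 2 probe sets in the later interval was not tested.

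Hpca, named for its abundance in the hippocampus, was called for the first week and not for the later interval. The lead probe set 1450930_at had 9.4, 9.6 and 9.3 in Plk3-KO retinas at P0 and 9.1, 9.8 and 9.3 in WT retinas. At P7 the values were 10.6, 10.2 and 11.2 in Plk3-KO retinas and 10.7, 10.8 and 10 in WT retinas. In the adult they were 11.2, 11.2 and 10.3 in Plk3-KO retinas and 11.3, 11.5 and 10.9 in WT retinas. P7 exceeded P0 without overlap, whereas adult and P7 arrays overlapped in Plk3-KO retinas, where adult array 3, the one that stood apart, was lowest. P7 exceeded P0 by 1.23 in Plk3-KO retinas (SE 0.304, adjusted p = 0.00845) and by 1.10 in WT retinas (adjusted p = 0.0177). By P7, 84.1% of the log2 gain to the adult was present in Plk3-KO and 60.0% in WT retinas. The Plk3-KO share rests on an adult mean that includes array 3. Whether the gain differed between the intervals was not tested. The adult minus P7 difference was 0.23 in Plk3-KO retinas (adjusted p = 0.643) and 0.73 in WT retinas (adjusted p = 0.107), and neither was called, although without the 4 arrays named above the WT difference of 0.65 was (adjusted p = 0.0388). The first-week call in Plk3-KO retinas was lost without P7 Plk3-KO array 3 (adjusted p = 0.0526), and that in WT retinas without P7 WT array 1 (0.0668), P7 WT array 2 (0.0714), P0 WT array 1 (0.0800) or P0 WT array 3 (0.0609). On the dimmer probe set 1425833_a_at the adult minus P0 difference was 1.37 in Plk3-KO retinas, which was not called (adjusted p = 0.0824), and 2.20 in WT retinas, which was (adjusted p = 0.00852), but its P0 means of 6.67 in Plk3-KO and 6.23 in WT retinas lay below the minimum, so these sizes are not firm.

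Hpcal1, a close relative of hippocalcin, was called for the later interval and not for the first week. Its probe set 1448812_at had P0 values of 10.6, 10.6 and 10.8 in Plk3-KO retinas and of 10.4, 10.7 and 10.8 in WT retinas. P7 values of 10.8, 10.8 and 11.1 in Plk3-KO retinas and of 10.9, 11.1 and 10.8 in WT retinas overlapped with these. The adult values were 12.2, 11.7 and 11.7 in Plk3-KO retinas and 12.1, 12.0 and 11.4 in WT retinas, above every P7 array. P7 minus P0 was 0.23 in Plk3-KO retinas (95% interval -0.19 to 0.66) and 0.30 in WT retinas (-0.12 to 0.72), and neither was called. The adult exceeded P7 by 0.97 in Plk3-KO retinas (SE 0.2, adjusted p = 0.00362) and by 0.90 in WT retinas (adjusted p = 0.00593), and P0 by 2.30-fold in each genotype.

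Ncald had the smallest gain of the sensors in Plk3-KO retinas. At P0, 1417568_at had 10.1, 10.3 and 10.4 in Plk3-KO retinas and 9.8, 10.4 and 10 in WT retinas. At P7 the values were 10.4, 10.1 and 10.6 in Plk3-KO retinas and 10.4, 10.6 and 10.2 in WT retinas. Adult values were 10.9, 11.1 and 10.9 in Plk3-KO retinas and 11.0, 11.5 and 11.3 in WT retinas. P0 and P7 overlapped in both genotypes, and the adult stood above both. The adult exceeded P0 by 0.70 in Plk3-KO retinas (SE 0.193, adjusted p = 0.00782) and by 1.20 in WT retinas (adjusted p = 0.000116). The adult minus P7 difference in Plk3-KO retinas, 0.60, was called (adjusted p = 0.0418), but the call was lost when any 1 of 9 arrays was left out. These were adult Plk3-KO arrays 1, 2 and 3 (adjusted p = 0.0729, 0.119 and 0.0543), P7 Plk3-KO arrays 1 and 2 (0.0890 and 0.152), P7 WT array 1 (0.0546), P0 Plk3-KO arrays 1 and 2 (0.0510 and 0.0543) and P0 WT array 3 (0.0511). The call was also lost without the 4 arrays named above (0.0895), with no filter on low values (0.0737) and without the trend of the variances (0.0605). The probe set 1417569_at was likewise called for adult over P0 (0.90 in Plk3-KO and 1.07 in WT retinas), whereas 1444466_at, which lay mostly below 7, was lower in the adult by values that were not called, at -0.20 in Plk3-KO and -1.37 in WT retinas.

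Cabp1 was called for the interval from P7 to adult and not for the first week. Its P0 values (1421255_a_at) were 8.3, 8.3 and 8.0 in Plk3-KO retinas and 8.0, 8.5 and 8.4 in WT retinas. At P7 they were 8.6, 6.6 and 8.5 in Plk3-KO retinas and 8.5, 8.8 and 7.6 in WT retinas, and the lowest value of each genotype came from an array that stood apart. Adult values were 9.8, 10.1 and 9.1 in Plk3-KO retinas and 10.6, 10.6 and 9.7 in WT retinas, above every P7 array. P7 minus P0 was -0.30 in Plk3-KO retinas (95% interval -1.27 to 0.67), but 0.35 without P7 Plk3-KO array 2, and 0.00 in WT retinas (-0.97 to 0.97). The adult exceeded P7 by 1.77 in Plk3-KO retinas (SE 0.46, adjusted p = 0.0149) and by 2.0 in WT retinas (adjusted p = 0.00739). The first of these calls was lost without adult Plk3-KO array 2 (adjusted p = 0.0586) or P7 Plk3-KO array 2 (0.0623), where the difference was 1.12, and the call for adult over P0 in Plk3-KO retinas (1.47, adjusted p = 0.0167) was lost without adult Plk3-KO array 2 (0.0689) or P0 Plk3-KO array 3 (0.0551).

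**Figure D2:**
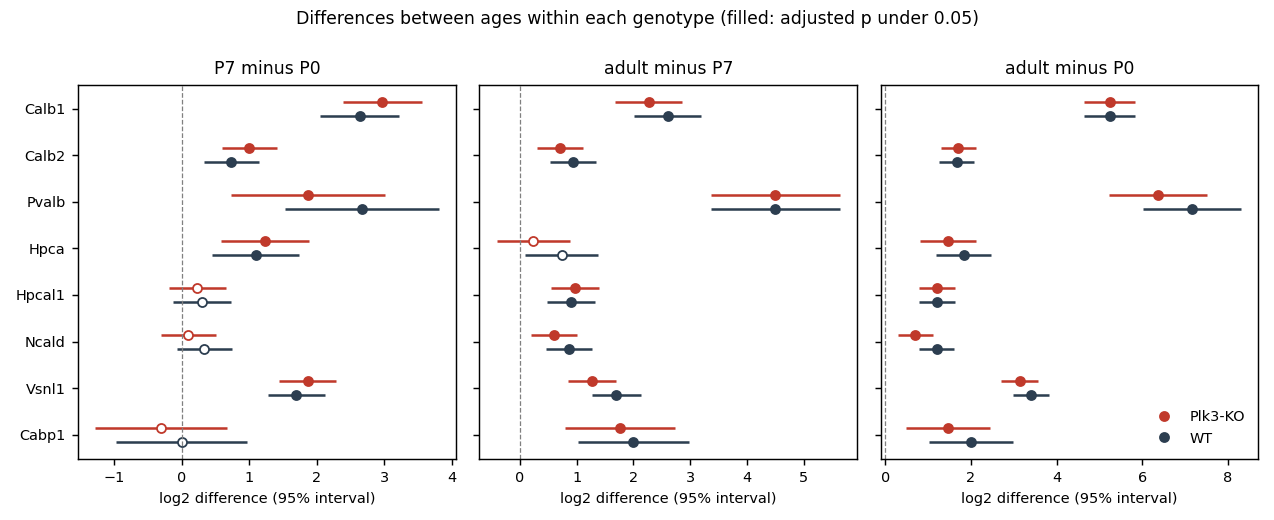
Log2 differences between ages (horizontal axis, points with 95% intervals from limma) for each member (vertical axis), with Plk3-KO in red above WT in dark blue and filled points where the adjusted p was under 0.05. Hpcal1, Ncald and Cabp1 are open for P7 minus P0, Hpca is open for adult minus P7, and every point is filled for adult minus P0.

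In each genotype, 5 of the 8 lead probe sets (Calb1, Calb2, Pvalb, Hpca and Vsnl1) were called higher at P7 than at P0, where 10.1% of all probe sets tested in Plk3-KO and 10.3% in WT retinas were. The Pvalb calls among these rest on signals below the minimum at both ages. Under the methods' t-test with adjustment, the calls of Pvalb and Hpca were lost in both genotypes and that of Calb2 in Plk3-KO retinas. For adult over P7 the count of lead probe sets called higher was 7 of 8 in each genotype, all but Hpca, against 7.96% of all probe sets in Plk3-KO and 8.54% in WT retinas. Under the methods' t-test with adjustment, the calls of Calb1, Calb2, Hpcal1, Ncald and Cabp1 were lost in both genotypes. That of Vsnl1 was lost in WT retinas (adjusted p = 0.0536). Counting all 14 probe sets tested, 12 were called higher in the adult than at P0 in Plk3-KO retinas, against 19.4% of all probe sets, and 13 were in WT retinas, against 20.7%. Pvalb and the Calb1 probe sets 1456934_at and 1448738_at passed the minimum only through adult groups. The filter therefore favoured a higher adult level for them, and their calls add no support to the counts of adult gains.

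The patterns of pairs of members over the 18 arrays were compared by the root-mean-square difference of their log2 values after each was centred on its own mean, a description that large changes enlarge and that shares depth and array effects. Hpcal1 and Ncald lay closest together, at 0.277, followed by Calb2 and Hpcal1 at 0.328 and by Calb2 and Hpca at 0.354. Calb1 lay nearest to Vsnl1 among the members (0.853), and Pvalb lay nearest to Calb1 (1.14) and farthest from Ncald (2.47). All distances of Pvalb include its P0 and P7 signals below the minimum, so their order is not firm. Among 12109 genes with 1 lead probe set above the minimum, the gene most like Calb1 was Pcp2, a modulator of G proteins found in bipolar cells, at 0.387, with Dohh at the same distance. Gng13 (0.706) and Ccn4 (0.715) were most like Pvalb. For Vsnl1 the nearest were Endog (0.241) and Nap1l5 (0.246), for Calb2 Lmbrd1 (0.146) and Bbs4 (0.154), and for Hpca Acot7 (0.236) and Kirrel3 (0.238). Hpcal1 lay nearest to Pip4p1 (0.152) and Borcs5 (0.165), Ncald to Add3 (0.187) and Hexim2 (0.198), and Cabp1 to Cxcl14 (0.368) and Ssbp4 (0.376). No member was among the 2 genes nearest to another.

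Markers of retinal cell types moved with age beside these genes. Over all probe sets tested, 19.4% were called higher and 24.2% lower in the adult than at P0 in Plk3-KO retinas. In WT retinas these shares were 20.7% and 25.9%. All 6 markers of dividing progenitors were lower in the adult than at P0 in both genotypes, and the log2 of their summed signal was 15.34 to 15.70 at P0, 11.35 to 12.79 at P7 and 9.95 to 10.16 in the adult. The 4 rod markers measured of 5, which include Gnat1, were all higher in the adult than at P0, and their sum ran from 17.24 to 18.73 in the adult and from 13.65 to 14.18 at P0. Of 7 ganglion cell markers measured of 8, 5 were called higher and 2 lower in the adult than at P0 in Plk3-KO retinas, and 4 higher and 2 lower in WT retinas. The ganglion cell markers called lower were Pou4f1 and Rbpms in both genotypes. The sum of the ganglion cell list ran from 15.06 to 15.46 in the adult and from 14.10 to 14.51 at P0. Sums of signal weigh the brightest gene of a list most, here Nefl (adult means 14.43 in Plk3-KO and 14.37 in WT retinas). They are therefore not levels of a cell type. Of 6 amacrine markers tested of 7, 3 were called higher and 1 lower in each genotype, and the sum ran from 14.06 to 14.61 in the adult and from 12.95 to 13.61 at P0. None of the 4 horizontal cell markers measured of 5 was called higher in the adult than at P0, and 1, Onecut2, was lower in each genotype, while Calb1, a horizontal cell marker by antibody, was called higher. Of the 4 cone markers all were called higher in both genotypes, as were 2 of 3 bipolar markers measured of 5, and of the 4 Müller glia markers 3 were higher and 1 lower. The muscle markers, listed because parvalbumin is abundant in fast muscle, summed to 9.01 to 9.48 in adult and 8.56 to 8.98 in P0 Plk3-KO retinas, and to 8.65 to 8.87 in adult and 8.43 to 9.87 in P0 WT retinas, and of the 2 tested of 6 none was called. Pigment epithelium markers were called higher for 4 of 5 in both genotypes, with sums of 15.15 to 16.35 in the adult and of 9.82 to 11.46 at P0. Of these, Lrat passed the minimum only through adult groups, so its call adds no support to that count. The part of the marker lists in the gains of the members was not tested.

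Related genes measured on the same arrays showed where the members stood in their families. Of 9 other genes of the neuronal calcium sensor family, 6 were called higher in the adult than at P0 in each genotype and 0 lower, with median differences of 4.23 in Plk3-KO and 4.63 in WT retinas. Over all probe sets tested, 19.4% were called higher in Plk3-KO and 20.7% in WT retinas. Kcnip2, among those called, passed the minimum only through adult groups, so its call adds no support to that count. In each genotype 5 of the 9 had P0 means not above the minimum, and with means below it raised to 7 the medians were 3.43 in Plk3-KO and 3.70 in WT retinas, while those of the members did not change. The sensors of photoreceptors gained most. Rcvrn, recoverin, which delays the shutoff of rhodopsin signalling, averaged 8.13 at P0, 13.70 at P7 and 15.47 in the adult in Plk3-KO retinas and 8.57, 13.60 and 15.13 at these ages in WT retinas. Guca1a, the activator of photoreceptor guanylate cyclase, exceeded its P0 level in the adult by 7.73 in Plk3-KO retinas and by 7.33 in WT retinas. Ncs1, a sensor found in many neurons, differed by -0.57 in Plk3-KO and -0.13 in WT retinas, and neither difference was called (adjusted p = 0.129 and 0.726).

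In the calmodulin family, 5 of 6 further genes on the array were tested, and 4 were called higher in the adult than at P0 in each genotype. Over all probe sets tested, the share was 19.4% in Plk3-KO and 20.7% in WT retinas. Cabp2, among those called, passed the minimum only through adult groups, so its call adds no support to that count. Cabp5, a relative of Cabp1 found in bipolar cells, was higher by 3.60 in Plk3-KO and 3.90 in WT retinas. Cabp4, which modulates the calcium channel at the photoreceptor synapse, was higher by 6.60 in Plk3-KO and 7.07 in WT retinas from a P0 mean below the minimum. Caln1 differed by 0.60 in each genotype, which was not called. The adult minus P0 difference of Cabp1 itself was 1.47 in Plk3-KO and 2.0 in WT retinas.

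Of 12 tested genes of other EF-hand proteins, 6 were called higher and 2 lower in the adult than at P0 in Plk3-KO retinas, and 7 higher and 2 lower in WT retinas. Over all probe sets tested, 19.4% were called higher and 24.2% lower in Plk3-KO retinas, and 20.7% and 25.9% in WT retinas. Calu, calumenin of the endoplasmic reticulum, was lower by a log2 difference of -0.80 in each genotype (adjusted p = 0.000935 in Plk3-KO and 0.000962 in WT retinas). S100a10 (0.70 in Plk3-KO and 0.23 in WT retinas) and Efhd2 (-0.13 in Plk3-KO and 0.60 in WT retinas) were not called. Among 21 tested calcium channels, pumps and calmodulin targets, 13 were called higher in Plk3-KO and 11 in WT retinas, and 0 lower. Itpr2, called in Plk3-KO retinas only, passed the minimum only through adult groups, so its call adds no support to that count. Pcp4, a small protein that speeds calcium exchange on calmodulin, was higher by 3.73 in Plk3-KO and 3.37 in WT retinas, and Atp2a2, the calcium pump of the endoplasmic reticulum, by 1.37 in Plk3-KO and 1.17 in WT retinas. Ppp3cb, a catalytic subunit of calcineurin, was called in Plk3-KO retinas (0.40, adjusted p = 0.0390) and not in WT retinas (0.37, adjusted p = 0.0533).

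**Figure D3:**
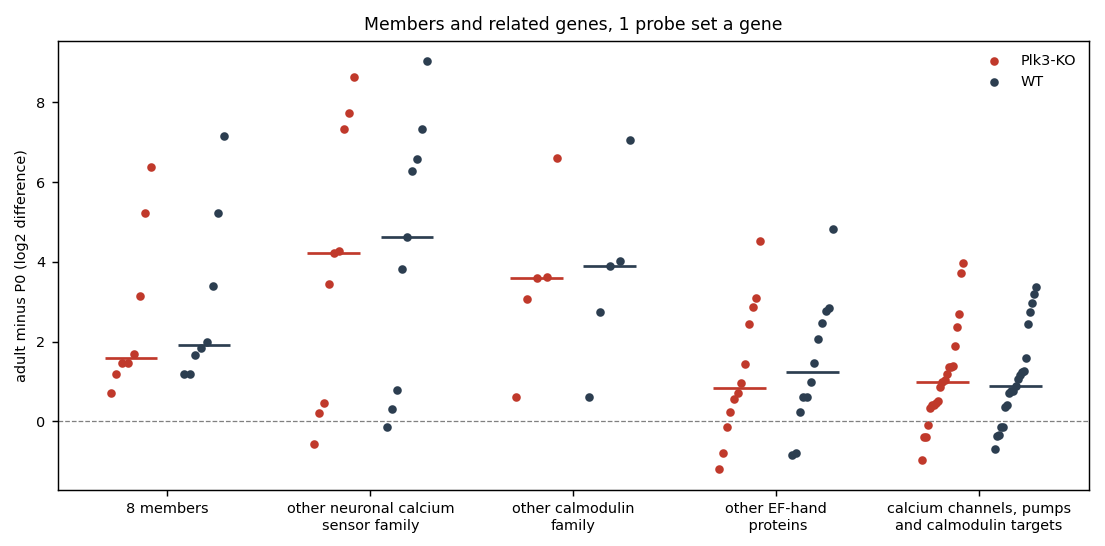
Adult minus P0 log2 difference (vertical axis) of the 8 members and of 4 lists of related genes, with 1 point per tested gene, horizontal bars at the medians, and Plk3-KO in red left of WT in dark blue. The median of the members was 1.58 in Plk3-KO and 1.92 in WT retinas, and that of the other calcium sensors 4.23 in Plk3-KO and 4.63 in WT retinas, where several P0 means lay below the minimum of 7.

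Plk3 genotype was compared at each age. None of the members tested was called different between Plk3-KO and WT retinas at P0, at P7 or in the adult, and 0% of all probe sets tested were called at each age by limma. Pvalb, below the minimum at P0 and P7, was tested for genotype only in the adult. At an unadjusted p under 0.05, limma had 85 of 22611 probe sets at P0 (0.376%), 123 of 21390 at P7 (0.575%) and 1008 of 21005 in the adult (4.80%). The methods' t-test had 503 at P0, 250 at P7 and 660 in the adult at that threshold and 0 at each age after adjustment. No lead probe set of a member was among these 503, 250 or 660, with 7 lead probe sets tested at P0, 7 at P7 and 8 in the adult.

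In the adult, 7 of the 8 lead probe sets had a lower mean in Plk3-KO than in WT retinas, but the 95% interval of each difference included 0. The median over the 8 was -0.30, beside a median of -0.03 over all probe sets tested. Cabp1 had the largest difference, -0.63 (SE 0.46, 95% interval -1.61 to 0.34, adjusted p = 0.978), with group means of 9.67 ± 0.51 in Plk3-KO and 10.30 ± 0.52 in WT retinas (SD, 3 arrays each). Calb1 differed by -0.37 (interval -0.95 to 0.22), Hpca by -0.33 (-0.98 to 0.31), and Ncald and Vsnl1 by -0.30 each (-0.71 to 0.11 for Ncald, -0.72 to 0.12 for Vsnl1). Calb2 differed by -0.13 (-0.54 to 0.28), Pvalb by -0.03 (-1.17 to 1.11) and Hpcal1 by 0.03 (-0.39 to 0.46). These intervals do not show that the genotypes are alike, since the interval for Pvalb runs from a 0.443-fold to a 2.15-fold level in Plk3-KO over WT retinas. The groups overlapped for all 13 member probe sets above the minimum in the adult, where 5.48% of all probe sets did not overlap, and the smallest exact permutation p of a lead probe set was 0.2. Below the minimum, 1458836_at of Calb1 did not overlap, with means of 6.43 in Plk3-KO and 4.90 in WT retinas. Its exact permutation p was 0.1, the smallest possible, and the lead probe set of Calb1 differed in the other direction.

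The 7 lower means shared arrays and were not independent. On adult Plk3-KO array 3, which stood apart and had an actin 3′ to 5′ difference of 2.7, Hpca and Cabp1 were at their lowest and Pvalb at its highest of the adult arrays. Without the 4 arrays named above, the adult difference was -0.70 for Calb1 (adjusted p = 0.152), -0.65 for Cabp1 (0.166) and -0.65 for Pvalb (0.680), and no member was called, although 338 probe sets then were. Calb2 was then at -0.30, Hpca at -0.20, Ncald at -0.25, Vsnl1 at -0.30 and Hpcal1, whose sign turned, at -0.10. Amacrine markers summed to 14.06 to 14.61 in adult Plk3-KO retinas and to 14.60 to 14.61 in adult WT retinas, with 0 of 6 tested markers called. Lens markers summed to 9.13 to 14.75 in adult Plk3-KO retinas and to 13.12 to 15.92 in adult WT retinas, with 0 of 4 called. Other lists shifted too. Adult Plk3-KO minus WT was 0.33 to 0.53 for rod, 0.33 to 0.57 for pigment epithelium and 0.13 to 0.50 for cone markers. Müller glia markers differed by -0.63 to -0.13, and horizontal, ganglion and bipolar markers went both ways. None of these markers was called. The part of the marker lists in the differences of the members was not tested.

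**Figure D4:**
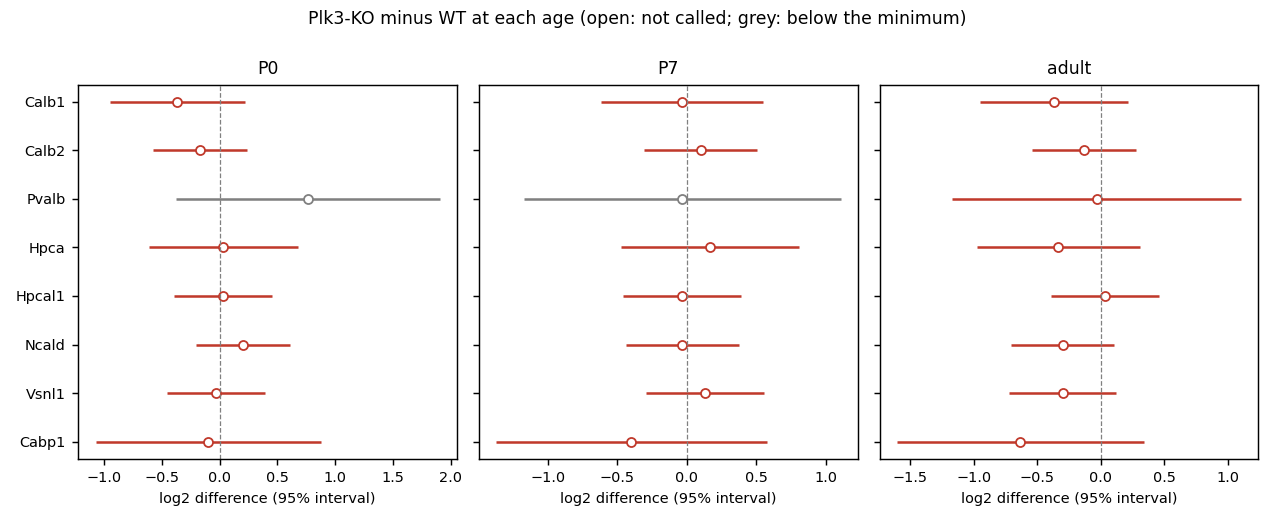
Plk3-KO minus WT log2 difference (horizontal axis, points with 95% intervals from limma) of each member (vertical axis) at P0, P7 and adult, with open points where the difference was not called and grey where both group means lay below the minimum of 7. Every interval includes 0, and in the adult the points run from -0.63 for Cabp1 to 0.03 for Hpcal1.

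At P7 the lead probe sets above the minimum differed by -0.40 (Cabp1) to 0.17 (Hpca), and 0 of 10 member probe sets above the minimum were free of overlap, where 1.92% of all probe sets were. The Cabp1 value rests on P7 Plk3-KO array 2 and was -0.10 without the 4 arrays named above, and that of Calb2 was 0.10 with them and -0.15 without them. At P0 the lead probe sets above the minimum differed by -0.37 (Calb1) to 0.20 (Ncald). Calb1 at P0 had means of 7.27 ± 0.25 in Plk3-KO and 7.63 ± 0.15 in WT retinas (SD, 3 arrays each), with 1 shared value of 7.5, and an exact permutation p of 0.2. The 1 member probe set of 10 without overlap at P0 was 1444466_at of Ncald, where 3.49% of all probe sets did not overlap. It had 6.2, 6.9 and 5.9 in Plk3-KO retinas, against 7.1, 7.4 and 7.2 in WT retinas, a difference of -0.90 (SE 0.714, adjusted p = 1) with an exact permutation p of 0.1, the smallest possible. The lead probe set of Ncald, 1417568_at, differed by 0.20 at P0, and on 1444466_at the Plk3-KO mean of 6.33 lay below the minimum.

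Whether the age schedule itself depended on genotype was tested by the interaction. None of the members was called for P7 over P0, adult over P7 or adult over P0, where 0% of the 25085 probe sets were called in each case, and limma had 128, 351 and 472 of them at an unadjusted p under 0.05. The member with the smallest unadjusted p was Ncald, whose gain from P0 to adult was smaller in Plk3-KO than in WT retinas by a log2 difference of -0.50 (SE 0.272, 95% interval -1.08 to 0.08, unadjusted p = 0.0850, adjusted p = 1). The gain of Calb1 from P0 to adult differed between genotypes by 0.00 (-0.83 to 0.83) and that of Hpcal1 by 0.00 (-0.60 to 0.60). For Pvalb the difference was -0.80 (-2.41 to 0.81), with P0 signals below the minimum. Averaged over the ages, the Plk3-KO minus WT differences ran from -0.38 (Cabp1) to 0.23 (Pvalb, which includes P0 and P7 signals below the minimum), and without the 4 arrays these values were -0.28 and 0.04. With all arrays, 0 of 14 member probe sets were called, against 0% of all probe sets tested, of which 396 had an unadjusted p under 0.05.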

How the data were processed

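Retinal RNA of 3 Plk3-KO and 3 WT littermates at each of P0, P7 and adult was amplified, labelled with biotin and hybridized to Affymetrix whole-genome mouse arrays. The authors background-corrected and normalized the arrays with MAS5 (Bioconductor affy; version not given in the sources used here) and deposited log2 signals with 1 decimal. The other arrays of the study were not analysed here. No normalization was added. Of 45101 probe sets, 64 controls were left out, 34945 carry 1 gene symbol, 932 several and 9160 none. Names, chromosomes and gene order came from a GRCm38.p6 gene table, which matched 34741 probe sets by gene ID. The array annotation names no build in the sources used here.

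A model with 1 mean per age and genotype was fitted to all 18 arrays with limma 3.58.1 in R 4.3.3, with variances moderated along the mean (12 residual and 4.07 prior degrees of freedom). Probe sets needed a mean log2 value above 7 in either genotype at that age (any group for other contrasts). Benjamini-Hochberg adjustment was over all probe sets tested in a contrast, at a threshold of 0.05. The fit was tested on simulated data. Exact permutation tests were two-sided. The methods' t-test was run with a pooled variance. Alternatives were no filter, a floor at 5, quantile normalization, no trend, a replicate block, each array left out in turn and, chosen after seeing the data, the 4 arrays that stand apart left out. Replicate numbers were not taken as pairs, since the labels name no shared litter.

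Named genes were all members, the 3 genes of highest mean in each related list, and the 2 genes nearest to each member. Gnat1, Onecut2, Kcnip2, Cabp2, Itpr2, Lrat, Nefl, Pou4f1 and Rbpms were named after their values were seen. The members and lists were chosen with earlier results of these data known. Protein sequences were not used here.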

Additional observations from a re-analysis of the deposited data

How the results depend on the processing

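Of 40 called differences of the members (age contrasts), 0 turned sign under any alternative and 18 were not called under at least 1 of them, or 8 when the methods' t-test is not counted. Of 64 uncalled differences, 25 changed sign under at least 1 alternative (the largest measured 0.40) and 1, adult minus P7 of Hpca in WT retinas, became called.

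Counts over all probe sets moved more. Plk3-KO minus WT in the adult called 0 probe sets, 1 with low values set to 5, 338 without the 4 arrays that stand apart, and 0 to 105 when each array was left out in turn, the most without adult WT array 3. That range was 0 to 1 at P7 and 0 to 1 at P0. The mean over ages called 0, 2 with the floor, 16 without the 4 arrays and 0 to 3 with 1 array left out. Without the 4 arrays the interaction called 10 for adult minus P7 and 23 for adult minus P0, with leave-one-out ranges of 0 to 2 and 0 to 3. P7 minus P0 called 4967 in Plk3-KO and 4816 in WT retinas (the methods' t-test 3305 and 2756; without the 4 arrays 7581 in WT; leave-one-out 3496 to 5775 and 3435 to 5643). Adult minus P7 called 4307 in Plk3-KO and 4348 in WT retinas (the methods' t-test 481 and 543; without the 4 arrays 9032 and 10847; leave-one-out 2850 to 4925 and 2336 to 6721). Adult minus P0 called 10939 in Plk3-KO retinas, and 7011 by the methods' t-test. Quantile normalization moved the median of all probe sets for P7 minus P0 to 0.01 in Plk3-KO and 0.02 in WT retinas (both -0.10 as deposited) and for adult minus P0 to -0.09 in Plk3-KO and -0.05 in WT retinas. The cause of these shifts was not tested.

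To see whether replicate numbers marked pairs, each array was expressed as deviations from its own group mean, over probe sets with a mean above 7. These deviations, not the signals, correlated between same-numbered Plk3-KO and WT arrays at 0.238, -0.052 and 0.117 at P0. The values were 0.468, -0.544 and -0.674 at P7 and 0.54, 0.081 and 0.546 in the adult. At least 1 value was under 0.1 at each age, and the numbers were not taken as pairs. In the adult the deviations of each Plk3-KO array correlated best with those of the WT array of its own number, which was so for 1 of 3 arrays at P7 and 1 of 3 at P0. With a replicate block that joined Plk3-KO and WT arrays of the same age and number, genotype called 0 at each age. For differences between ages, the block instead joined arrays of the same genotype and number across ages. Only the number links those arrays, so that block is no test of litter pairs. With it, adult minus P0 called 10069 in Plk3-KO and 10747 in WT retinas. Adult minus P7 called 3496 and 3488 in that order of genotypes, and P7 minus P0 4203 and 4049. No call of a member between ages was lost with it.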
